A study of Mus musculus with 22 samples.

Results

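The genes of NAD synthesis and salvage were followed in sorted muscle stem cells before and after muscle injury. The set was 10 genes named by their role: Nampt, Nnmt, Nmrk1, Nmrk2, Naprt, Nmnat1, Nmnat2, Nmnat3, Nadk and Nadk2. They were 10 of the 43430 genes counted, found by summing the transcripts of each Ensembl gene and matching symbols. All 10 were among the 15084 genes with enough counts to be tested. RNA came from Pax7-zsgreen mice, in which cells expressing Pax7, the transcription factor of muscle stem cells, are marked green. Hindlimb muscle was uninjured or was taken 1 day or 3 days after injury with cardiotoxin, a venom protein that kills myofibers, after which muscle is rebuilt. Each state was studied at ZT16 and at ZT4, zeitgeber times, which count hours from lights on. Of 22 libraries, 3 per time came from uninjured muscle, 4 per time from day 1 and 4 per time from day 3. All 22 came from the same genotype and were lightly fixed in the animal before sorting. The labels tie the zeitgeber time of injured groups to the injury, without an hour of collection, and name neither age nor sex. They do not say whether replicates were separate mice, so the p-values measure the spread between libraries, which may be partly technical.

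NAD carries electrons in glycolysis and respiration and is consumed by enzymes such as sirtuins, which release nicotinamide. Most cells rebuild NAD from that nicotinamide. NAMPT turns nicotinamide into nicotinamide mononucleotide (NMN), NMRK kinases make NMN from nicotinamide riboside, and NAPRT starts a separate route from nicotinic acid. NMNAT enzymes then complete the dinucleotide, and NAD kinases turn NAD into NADP, the source of NADPH for biosynthesis and antioxidant defence. NNMT methylates nicotinamide and so takes it out of salvage. In mouse liver and other tissues Nampt is known as a gene driven by the circadian clock through E-boxes.

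Depth was 5965957 to 9751536 estimated counts per library, and 15875 to 23267 genes had counts. The summed level of 10 satellite cell markers was 6961 to 10546.6 counts-per-million (CPM, scaled by the TMM method) in uninjured libraries, 2321.8 to 3666.2 at day 1 and 2250.2 to 2710.1 at day 3, and no marker was at 0 throughout a group. Markers of other cells had counts too. Bulk RNA does not tell whether other cells or the sorted stem cells made it. Macrophage and monocyte markers, 16 genes, summed to 17.1 to 108.3 CPM without injury, 1394.2 to 4500.9 at day 1 and 288.1 to 1029.9 at day 3. Fibro-adipogenic markers, 12 genes, summed to 6375.5 to 7731.9 CPM, 1443.7 to 2219.6 and 2340.0 to 4804.6 in the same order. Gene by gene, at day 3 against uninjured 7 of the 12 were higher and 4 lower, with a median log2 change of 1.27. A pair of libraries stood apart: uninjured ZT16 replicates 1 and 3 had 67862.2 and 58001.6 CPM in 12 immediate early genes, against 3169.9 in replicate 2 and 1106.3 to 3789.4 at ZT4. Day 1 ZT16 replicate 4 had 2765.9 CPM of them, and the other day 1 libraries had 10268.2 to 14311.9. Levels in bulk RNA are shares of a library, so fewer cells of a type and less RNA per cell cannot be told apart.

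The members differed widely in level. On the TPM scale, which corrects for transcript length, Nadk had the highest mean in each state: 84.5 ± 17.3 in uninjured libraries, 190.1 ± 13.8 at day 1 and 129.1 ± 13.8 at day 3 (SD, n = 6, 8 and 8). Its lowest library in any group, at 66.0 TPM, was above every other member's level except that of Nnmt in uninjured ZT16 libraries, where Nnmt reached 108.5 TPM. Nmnat2 and Nmrk2 were the least abundant members in every state, Nmrk2 at 1.83 ± 1.48 TPM and Nmnat2 at 3.79 ± 1.46 TPM without injury. Between these ends the uninjured means of Nadk2 (21.5 ± 6.87 TPM), Naprt (16.7 ± 3.07), Nmrk1 (15.9 ± 4.79), Nmnat3 (15.3 ± 4.29) and Nmnat1 (14.7 ± 4.87) each differed from the next by less than the larger of their SDs. Nampt was at 8.89 ± 3.29 TPM, below all of these, and had the third place from the bottom.

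The order differed after injury. At day 1 Nampt, at 16.5 ± 1.67 TPM, had the highest mean after Nadk, and its libraries overlapped those of Nadk2 (13.4 ± 2.13) and Nmnat1 (13.3 ± 2.69). At day 3 Nmnat1 (17.8 ± 3.80 TPM) and Nampt (15.3 ± 1.96) led the members other than Nadk and did not differ beyond their spread. Naprt was at 7.71 ± 2.31 TPM at day 1 and 2.71 ± 0.933 at day 3, when it was among the lowest of the set with Nmrk2 (1.44 ± 0.816) and Nmnat2 (1.04 ± 0.286).

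**Figure D1:**
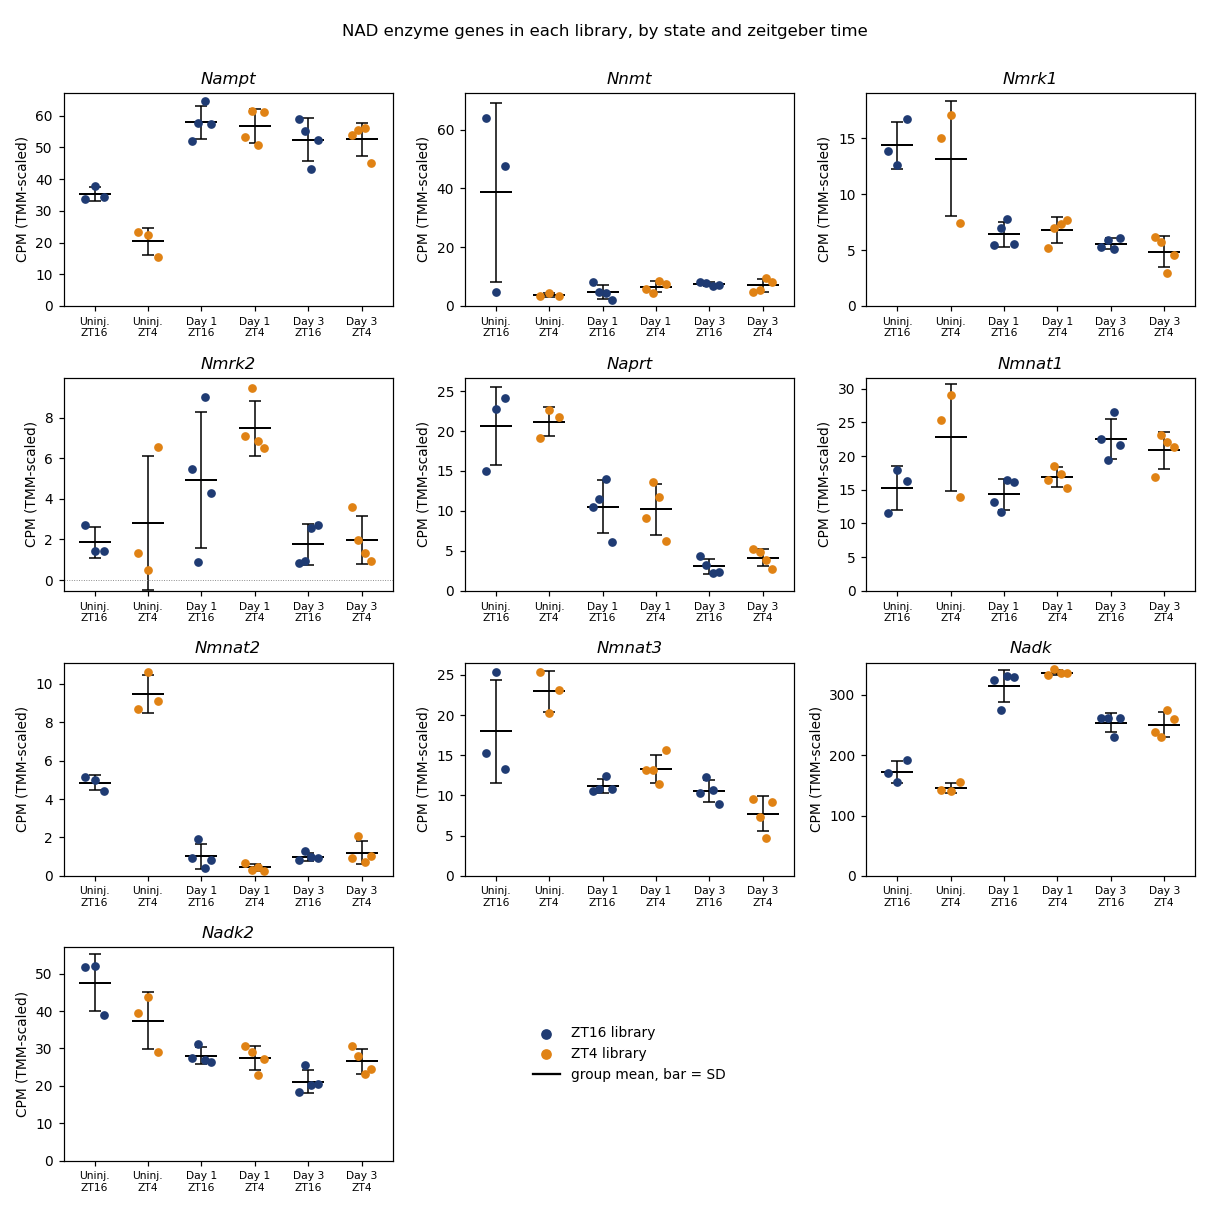
CPM of the 10 NAD enzyme genes in each of 22 libraries (points), by state and zeitgeber time, with group mean (line) and SD (bar). Nampt lay between 43.2 and 64.7 CPM in all injured libraries and at most at 37.8 in uninjured ones, and Nnmt was high in 2 uninjured ZT16 libraries, at 63.8 and 47.5 CPM.

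Comparing the state of injury, averaged over both times, asked how the enzyme set differed after injury. At day 1 against uninjured, 3 of the 10 members rose (Nampt, Nadk and Nmrk2), 6 fell (Nmnat2, Nnmt, Nmrk1, Naprt, Nmnat3 and Nadk2) and Nmnat1 did not pass, by edgeR's quasi-likelihood test with Benjamini-Hochberg adjustment over all genes. Injury moved most of the transcriptome: 75.2% of the genes tested passed, 34.6% higher and 40.6% lower, so the share of members called is near that background. The median log2 fold change was -0.67 over the members and -0.125 over all genes. At day 3 against uninjured, 2 members rose and 5 fell, where 76.9% of all genes passed (37.9% higher, 39.1% lower), with medians of -0.78 over the members and -0.026 over all genes. At day 3 against day 1, 1 member rose and 4 fell, against 55.4% of all genes (26.7% higher, 28.7% lower), with medians of -0.29 and -0.017. Nampt and Nadk were higher than uninjured on both days, and Nmnat2, Nmrk1, Naprt, Nmnat3 and Nadk2 were lower on both. The comparisons of day 1 and day 3 with uninjured share the 6 uninjured libraries.

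**Figure D2:**
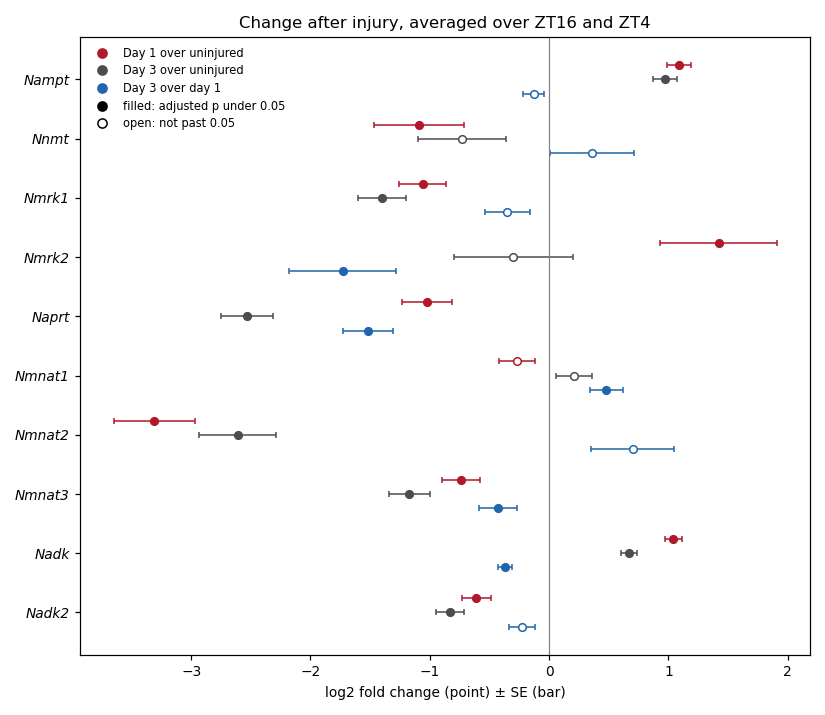
Log2 fold changes (points) with SE (bars) of the 10 genes for day 1 over uninjured, day 3 over uninjured and day 3 over day 1, averaged over ZT16 and ZT4. Filled points passed an adjusted p of 0.05 in edgeR. Nampt (1.09 and 0.97) and Nadk (1.04 and 0.67) lie right of 0 on both days, and Nmnat2 lies farthest to the left, at -3.31 and -2.61.

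Nampt, the gene for the rate-limiting enzyme of salvage, lies on chromosome 12 (32819545 to 32853349, forward strand, GRCm38), and all of its counts were assigned to 1 transcript. In uninjured libraries it had 33.7, 37.8 and 34.2 CPM at ZT16 and 23.3, 22.3 and 15.4 CPM at ZT4. At day 1 it had 51.9, 57.5, 64.7 and 57.3 CPM at ZT16 and 53.2, 61.5, 50.8 and 61.2 at ZT4. At day 3 it had 58.9, 55.2, 43.2 and 52.4 CPM at ZT16 and 53.8, 55.4, 56.1 and 44.9 at ZT4. Every injured library was above every uninjured one, ZT16 and ZT4 overlapped on both days after injury, and without injury the ZT16 libraries were all above those at ZT4.

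Nampt rose at day 1 by 1.09 ± 0.10 log2 (SE), or 2.14-fold, against uninjured (edgeR adjusted p = 7.93e-10). At day 3 it was 1.96-fold higher than without injury (0.97 ± 0.10, edgeR adjusted p = 5.77e-09). Day 3 and day 1 differed by -0.13 ± 0.09 (edgeR adjusted p = 0.249). In all 32 alternative analyses of each, both calls against uninjured kept their direction and their side of the threshold, with log2 values of 1.03 to 1.26 at day 1 and 0.92 to 1.14 at day 3. The 32 include fits that left out a library of the state not compared, which enters through the shared spread, scaling and filter. Macrophage markers were also higher after injury, as given above. Neutrophil markers, 8 genes, summed to 31.5 to 321.1 CPM at day 1 and to 0.0 to 3.71 CPM without injury, with Ly6g at 0 in all day 1 libraries, and their part in the Nampt change was not tested. Among day 1 libraries the macrophage sum was 1394.2 to 2685.9 CPM at ZT16 and 2595.8 to 4500.9 at ZT4. Nampt had 51.9 to 64.7 and 50.8 to 61.2 CPM in the same order. The part of macrophages in the Nampt change was not tested either.

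The sequence in front of Nampt is shown because the gene is a known clock target elsewhere and rose together with Nadk here. RefSeq windows of 250 bases before an annotated start (GRCm38.p6) were at hand for 7 of the 10 members, 9 windows in all, and CACGTG, the core E-box, which reads the same on both strands, was searched in them. It occurs in 1978 of 32851 such windows, 6.02%. The Nampt window, chr12:32820085-32820334 on the forward strand, is 75.6% G or C and holds 27 CpG and no CACGTG. Its RefSeq start lies downstream of the Ensembl start given above, so the window falls inside the Ensembl gene.
Nampt: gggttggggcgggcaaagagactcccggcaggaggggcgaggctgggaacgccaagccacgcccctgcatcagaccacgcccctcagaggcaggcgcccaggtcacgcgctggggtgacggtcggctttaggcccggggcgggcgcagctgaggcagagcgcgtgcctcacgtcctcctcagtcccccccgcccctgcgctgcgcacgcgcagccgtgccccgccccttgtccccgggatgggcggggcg
These letters say nothing of the factor elsewhere in the gene, and no binding was measured.

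The Nampt locus holds a second gene. Gdap10, a long noncoding RNA on the same strand (chromosome 12, 32821872 to 32826904), lies inside it. A read split between genes leaves fractional totals, and Nampt totals were within 0.05 of a whole number in 22 of 22 libraries. The counts do not show which gene a read of the shared stretch came from. Gdap10 was at 29.7 ± 15.4 CPM at ZT16 and 10.4 ± 2.97 at ZT4 without injury (SD, n = 3 each), a log2 difference of 1.53 ± 0.34 (edgeR adjusted p = 0.00255). At day 1 it did not pass against uninjured (0.11 ± 0.22, edgeR adjusted p = 0.673), and at day 3 it fell (-0.55 ± 0.22, edgeR adjusted p = 0.0266), whereas Nampt rose on both days.

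Genes whose levels ran most alike with Nampt over the 22 libraries, by Pearson r of log2 CPM among 15084 genes, were Tra2b (r = 0.952), Tex30 (0.948), Pds5a (0.946), Ipo11 (0.944) and Dck (0.942). Tra2b encodes a splicing factor, Ipo11 a nuclear import receptor and Dck deoxycytidine kinase, a salvage enzyme for deoxynucleosides. Each was likewise lowest at uninjured ZT4. Dck, for example, averaged 37.9 CPM at ZT16 and 23.6 at ZT4 without injury, and its injured groups averaged 78.8 to 88.7 CPM. Libraries share depth and state, so these values are a description only.

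Nnmt, which removes nicotinamide by methylation, was the most uneven member. It lies on chromosome 9 (48591877 to 48605153, reverse strand). In uninjured libraries it had 63.8, 4.71 and 47.5 CPM at ZT16 and 3.50, 4.33 and 3.37 at ZT4. After injury it had 8.04, 4.89, 4.32 and 2.08 CPM at day 1 ZT16, with 5.86, 4.58, 8.55 and 7.44 at day 1 ZT4. At day 3 it had 8.11, 7.92, 6.72 and 7.09 CPM at ZT16 and 4.71, 5.56, 9.5 and 8.27 at ZT4. A single pair of libraries, uninjured ZT16 replicates 1 and 3, was far above the rest, and the other 20 lay between 2.08 and 9.5 CPM. They are the same libraries that had the high sums of immediate early genes.

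Against uninjured, Nnmt fell at day 1 (-1.09 ± 0.38, edgeR adjusted p = 0.013) and did not pass at day 3 (-0.73 ± 0.37, edgeR adjusted p = 0.0803). Those signs rest on the high pair. Without both libraries the day 1 value was 0.55 ± 0.34 (edgeR adjusted p = 0.152), and the day 3 value was 0.85 ± 0.34, past the threshold in the other direction (edgeR adjusted p = 0.0298). Without ZT16 replicate 1 alone the day 1 value was -0.78 ± 0.37 (edgeR adjusted p = 0.0629), and without ZT16 replicate 2 the day 3 value was -0.87 ± 0.24 (edgeR adjusted p = 0.00229). The day 1 call also ended in limma voom (-0.98, adjusted p = 0.197) and with only the groups compared in the fit (-0.99, edgeR adjusted p = 0.0584). Day 3 did not pass against day 1 (0.36 ± 0.35, edgeR adjusted p = 0.402).

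**Figure D3:**
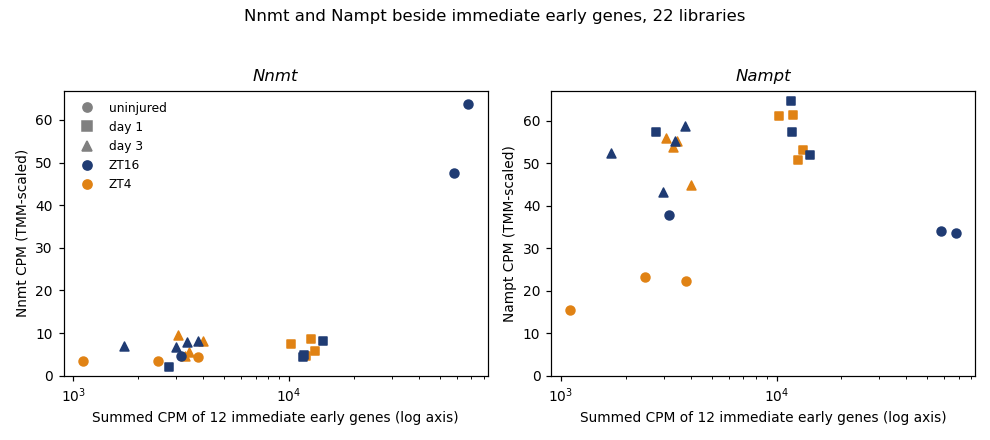
Nnmt (left) and Nampt (right) in CPM against the summed CPM of 12 immediate early genes on a log axis, 1 point per library. The uninjured ZT16 libraries at 67862.2 and 58001.6 CPM of early genes have 63.8 and 47.5 CPM of Nnmt, and their Nampt, at 33.7 and 34.2 CPM, is near the 37.8 CPM of the third ZT16 library.

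The genes most like Nnmt by the same measure were Sertad3 (r = 0.882), Dnajb4 (0.862), Cdkn2aip (0.859), Ubb (0.835) and Psd (0.829). Dnajb4 encodes a heat shock co-chaperone of the DNAJ family, and Ubb encodes ubiquitin. Dnajb4 averaged 190.9 CPM at uninjured ZT16 and 41.4 at uninjured ZT4, with 50.9 to 59.2 CPM in the injured groups. A pair of high libraries can set such an r by itself.

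The nicotinamide riboside kinases moved in opposite directions at day 1. Nmrk1, the broadly expressed kinase (chromosome 19, 18631950 to 18652428), had 13.8, 12.6 and 16.7 CPM at uninjured ZT16 and 15, 17.1 and 7.37 at uninjured ZT4. Day 1 libraries had 5.18 to 7.74 CPM and day 3 libraries 2.97 to 6.12. Day 3 lay wholly below uninjured, and day 1 overlapped it only through uninjured ZT4 replicate 3. Nmrk1 was 2.08-fold lower at day 1 (-1.06 ± 0.20, edgeR adjusted p = 4.38e-05) and 2.65-fold lower at day 3 than without injury (-1.40 ± 0.20, edgeR adjusted p = 9.29e-07). Day 3 against day 1 gave -0.35 ± 0.19 (edgeR adjusted p = 0.136).

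Nmrk2, known as the muscle form of the kinase, lies on chromosome 10 (81198170 to 81202051, reverse strand) and was low throughout, with 4 to 71 estimated counts per library. At day 1 it had 5.46, 0.901, 9.01 and 4.29 CPM at ZT16 and 7.09, 9.47, 6.84 and 6.48 at ZT4. In uninjured libraries it had 2.72, 1.43 and 1.42 CPM at ZT16 and 1.35, 0.495 and 6.57 at ZT4. All day 1 libraries but ZT16 replicate 2 were above all uninjured ones but ZT4 replicate 3.

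Nmrk2 rose at day 1 by 1.42 ± 0.49 (2.68-fold, edgeR adjusted p = 0.0113), or by 2.20 ± 0.48 without uninjured ZT4 replicate 3 (edgeR adjusted p = 0.000218). At day 3 its libraries had 0.821 to 3.61 CPM, which did not pass against uninjured (-0.30 ± 0.50, edgeR adjusted p = 0.593) and fell against day 1 (-1.73 ± 0.45, edgeR adjusted p = 0.00229). Without uninjured ZT4 replicate 3 the day 3 value against uninjured was 0.50. Myofiber markers, 14 genes, summed to 796.1 to 2072.2 CPM without injury, 175.8 to 1102.8 at day 1 and 1262.4 to 3104.8 at day 3. Gene by gene, 13 of the 14 were lower at day 1 than without injury. At day 3 against day 1, 8 were higher and 5 lower. The part of myofiber RNA in the Nmrk2 values was not tested. Within day 1, ZT16 replicate 2 had the lowest value of both, 0.901 CPM of Nmrk2 and 175.8 CPM of myofiber markers. The highest values fell in different libraries. ZT4 replicate 3 had the most myofiber markers, 1102.8 CPM, with 6.84 CPM of Nmrk2. ZT4 replicate 2 had the most Nmrk2, 9.47 CPM, with 743.1 CPM of myofiber markers. Atcayos, an antisense gene that spans Nmrk2, was at 0.364 ± 0.295 CPM at ZT16 and 0.660 ± 0.426 at ZT4 of day 1, and at 6.83 ± 4.14 and 6.14 ± 2.51 CPM at day 3 (SD, n = 4 each), above the Nmrk2 means of day 3. The kit does not mark strand, so reads of a stretch shared by the pair cannot be told apart by strand. Nmrk2 totals were within 0.05 of a whole number in 22 of 22 libraries.

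Naprt, which starts NAD synthesis from nicotinic acid, fell at day 1 and again by day 3. It lies on chromosome 15 (75890956 to 75894481, reverse strand). Uninjured libraries had 15, 22.7 and 24.1 CPM at ZT16 and 19.1, 22.6 and 21.8 at ZT4. Day 1 libraries had 10.5, 11.5, 14.0 and 6.09 CPM at ZT16 and 9.14, 13.6, 11.8 and 6.20 at ZT4. Day 3 libraries had 4.41, 3.19, 2.24 and 2.41 CPM at ZT16 and 5.18, 4.87, 3.86 and 2.76 at ZT4. The 3 states did not overlap.

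Relative to uninjured, Naprt was 2.02-fold lower at day 1 (-1.02 ± 0.21, edgeR adjusted p = 0.000112) and 5.78-fold lower at day 3 (-2.53 ± 0.22, edgeR adjusted p = 1.75e-10). Day 3 was below day 1 by -1.52 ± 0.21 (edgeR adjusted p = 1.52e-06). These 3 calls held in all 32 alternatives of each. Eef1d, a translation elongation factor gene whose end overlaps the start of Naprt on the same strand, went the other way, with log2 changes of 1.31 ± 0.08 at day 1 and 1.16 ± 0.08 at day 3 against uninjured (edgeR adjusted p = 3.86e-13 and 2.49e-12).

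The NMNAT enzymes, which join NMN to ATP to make NAD, changed unequally. Nmnat1, the nuclear enzyme (chromosome 4, 149467572 to 149485202, reverse strand), had 11.6 to 17.9 CPM at uninjured ZT16 and 13.9 to 29.1 at uninjured ZT4, 11.7 to 18.6 at day 1 and 16.9 to 26.5 at day 3. It did not pass at day 1 (-0.27 ± 0.15, edgeR adjusted p = 0.119) or at day 3 (0.21 ± 0.15, edgeR adjusted p = 0.201) against uninjured, and was 1.39-fold higher at day 3 than at day 1 (0.48 ± 0.14, edgeR adjusted p = 0.00595). Of the 32 alternatives of each comparison with uninjured, 2 passed at day 1 and 4 at day 3, among them fits without a single uninjured library. Without ZT4 replicate 3 the day 1 value passed (-0.37 ± 0.14, edgeR adjusted p = 0.0168). Without ZT4 replicate 1, ZT4 replicate 2 or ZT16 replicate 2 the day 3 value passed (0.38, 0.36 and 0.40, edgeR adjusted p = 0.0429, 0.0448 and 0.0298).

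Nmnat2, the cytosolic and Golgi enzyme best known for keeping axons alive, had the largest change of the set at day 1. It lies on chromosome 1 (152954993 to 153119261, forward strand). Uninjured libraries had 5.16, 5.0 and 4.4 CPM at ZT16 and 8.69, 10.6 and 9.13 at ZT4. Day 1 libraries had 0.910, 1.93, 0.381 and 0.831 CPM at ZT16 and 0.682, 0.316, 0.467 and 0.276 at ZT4. Day 3 libraries had 0.743 to 2.09 CPM, and no injured library reached the uninjured range. Nmnat2 was 9.93-fold lower at day 1 (-3.31 ± 0.34, edgeR adjusted p = 3.82e-09) and 6.10-fold lower at day 3 than without injury (-2.61 ± 0.32, edgeR adjusted p = 7.30e-08). The day 3 value did not differ beyond its SE from that of Naprt (-2.53 ± 0.22). Over the 32 alternatives it ran from -2.81 to -1.60, against -2.65 to -2.35 for Naprt.

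Its counts were 2 to 15 per library after injury and 31 to 86 without, so it passed the filter on low counts through uninjured libraries, and the sizes of its folds are coarse. Day 3 did not pass against day 1 (0.70 ± 0.35, edgeR adjusted p = 0.0896), but did without day 1 ZT16 replicate 2 (0.97 ± 0.34, edgeR adjusted p = 0.0206). Schwann cell markers, 6 genes of the glia that wrap axons, summed to 482.3 to 628.3 CPM without injury, 150.4 to 244.5 at day 1 and 45.7 to 59.6 at day 3, and their part in the Nmnat2 change was not tested.

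Nmnat3, the mitochondrial enzyme (chromosome 9, 98287435 to 98420438, forward strand), had 15.3, 25.3 and 13.3 CPM at uninjured ZT16 and 25.4, 20.3 and 23.1 at uninjured ZT4. Day 1 libraries had 10.5 to 15.6 CPM, overlapping the low end of uninjured, and day 3 libraries had 4.75 to 12.3, wholly below it. Nmnat3 fell by 0.74 ± 0.16 on the log2 scale at day 1 (edgeR adjusted p = 0.000295) and by 1.17 ± 0.17 at day 3 (edgeR adjusted p = 7.89e-07), against uninjured. Day 3 was lower than day 1 (-0.43 ± 0.16, edgeR adjusted p = 0.0245), a call that ended without day 1 ZT4 replicate 4 (-0.36, edgeR adjusted p = 0.0697) or day 3 ZT4 replicate 3 (-0.34, edgeR adjusted p = 0.0606). It also ended with no filter on low counts (-0.42, edgeR adjusted p = 0.0754) and with effective length offsets (-0.39, edgeR adjusted p = 0.0616).

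The NAD kinases also parted. Nadk, the cytosolic kinase that makes NADP (chromosome 4, 155562378 to 155591001, forward strand), had 169.9, 156.1 and 192.0 CPM at uninjured ZT16 and 142.5, 140.3 and 155.0 at uninjured ZT4. At day 1 it had 324.2, 274.7, 331.1 and 329.8 CPM at ZT16 and 333.1, 343.5, 336.4 and 336.1 at ZT4. Day 3 libraries had 262.2, 261.1, 230.9 and 261.7 CPM at ZT16 and 238.2, 230.4, 275.0 and 260.3 at ZT4. All injured libraries were above all uninjured ones, and day 1 was above day 3 but for 1 library at each day, day 1 ZT16 replicate 2 at 274.7 and day 3 ZT4 replicate 3 at 275.0 CPM.

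Nadk was 2.05-fold higher at day 1 (1.04 ± 0.07, edgeR adjusted p = 6.71e-13) and 1.59-fold higher at day 3 than without injury (0.67 ± 0.07, edgeR adjusted p = 1.48e-09). Day 3 was lower than day 1 (-0.37 ± 0.06, edgeR adjusted p = 1.22e-05). Its counts, 967 to 2608 per library, were the deepest of the set.

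Nadk2, the mitochondrial kinase (chromosome 15, 9071260 to 9110891, forward strand), went down. It had 51.9, 52.0 and 38.9 CPM at uninjured ZT16 and 39.5, 43.7 and 29.0 at uninjured ZT4, 23.0 to 31.3 at day 1 and 18.4 to 30.6 at day 3. The injured and uninjured ranges met only at uninjured ZT4 replicate 3. Against uninjured, Nadk2 was 1.52-fold lower at day 1 (-0.61 ± 0.12, edgeR adjusted p = 4.74e-05) and 1.78-fold lower at day 3 (-0.83 ± 0.12, edgeR adjusted p = 5.24e-07). Day 3 did not pass against day 1 (-0.23 ± 0.11, edgeR adjusted p = 0.0813). It passed without day 1 ZT4 replicate 3 (-0.27), day 3 ZT4 replicate 1 (-0.32) or day 3 ZT16 replicate 2 (-0.28), with edgeR adjusted p = 0.0489, 0.0195 and 0.0358.

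Estimated counts of Nadk were split mainly between transcripts with different starts. Transcript Nadk-201, which begins at 155562378, held 61.0 ± 8.01% of the gene's estimated counts without injury, 54.6 ± 6.14% at day 1 and 44.1 ± 14.6% at day 3 (SD, n = 6, 8 and 8). Transcript Nadk-203, which begins at 155563700, held 37.7 ± 8.39%, 36.7 ± 6.13% and 48.8 ± 12% in the same order. For Nadk-201 the lowest day 3 library, ZT4 replicate 1, had 16.7%, and the other day 3 libraries had 39.2 to 66.6%. That library also had the most genes with counts of all, 23267. Shares of 15 transcripts in 6 members were compared between states in 45 two-sided exact permutation tests, and none passed after Benjamini-Hochberg adjustment, the Nadk-201 share at day 3 against uninjured having exact p = 0.0233 and adjusted p = 0.265. By TPM 1 share passed, that of Nadk-201 at day 1, which was 14.7 percentage points lower than without injury (exact permutation test, adjusted p = 0.015), against 6.4 points by counts (adjusted p = 0.363).

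RefSeq windows at hand for Nadk lie near these starts, both on the forward strand, and they differ in make-up. The upstream one, chr4:155562131-155562380, is 46.8% G or C with 4 CpG. The downstream one, chr4:155563565-155563814, is 66.0% G or C with 18 CpG, and is the sole window of a member that holds CACGTG (capitals), whose first base lies 40 bases before the RefSeq start. That RefSeq start is downstream of the Ensembl start of Nadk-203, so the motif falls inside that transcript as Ensembl gives it.
Nadk, upstream start: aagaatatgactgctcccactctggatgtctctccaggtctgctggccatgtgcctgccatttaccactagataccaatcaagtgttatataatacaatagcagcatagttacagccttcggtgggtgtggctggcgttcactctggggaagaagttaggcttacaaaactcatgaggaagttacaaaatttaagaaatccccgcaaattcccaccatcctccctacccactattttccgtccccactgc
Nadk, downstream start: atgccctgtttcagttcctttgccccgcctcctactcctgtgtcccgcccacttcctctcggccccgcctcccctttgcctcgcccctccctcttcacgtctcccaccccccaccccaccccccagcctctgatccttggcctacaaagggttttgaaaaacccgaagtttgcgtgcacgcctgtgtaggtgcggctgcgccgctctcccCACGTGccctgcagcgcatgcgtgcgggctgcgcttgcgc
The match is a description of the letters, and no factor was measured at it.

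Ratios within a library do not depend on the scaling between libraries, so enzymes with related substrates were also compared as log2 ratios of counts (pseudocount 0.5). The 6 ratios were chosen after the results above were seen, use the same counts and gave 18 tests, of which 14 passed by two-sided exact permutation with Benjamini-Hochberg adjustment. Nadk over Nadk2 averaged 3.55 ± 0.21 at day 1 and 1.92 ± 0.35 without injury (SD, n = 8 and 6, exact permutation p = 0.000333, the smallest possible, adjusted p = 0.000749). At day 3 it was 3.42 ± 0.30, also above uninjured (adjusted p = 0.000749 by exact permutation), and did not pass against day 1 (-0.14, exact permutation adjusted p = 0.318).

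Nampt over Naprt averaged 0.36 ± 0.58 without injury, 2.52 ± 0.47 at day 1 and 3.89 ± 0.36 at day 3, with no overlap between states (exact permutation adjusted p = 0.000749 for each pair). Nmrk2 over Nmrk1 averaged -0.30 ± 1.07 at day 1, against -2.90 ± 1.59 without injury (exact permutation adjusted p = 0.0104), and -1.61 ± 0.75 at day 3, below day 1 (exact permutation adjusted p = 0.0226). Nmnat1 over Nmnat3 averaged -0.14 ± 0.48 without injury, 0.35 ± 0.22 at day 1 and 1.28 ± 0.48 at day 3. Each of its 3 pairs passed, with exact permutation adjusted p = 0.000749 for day 3 against either state and 0.0351 for day 1 against uninjured.

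**Figure D4:**
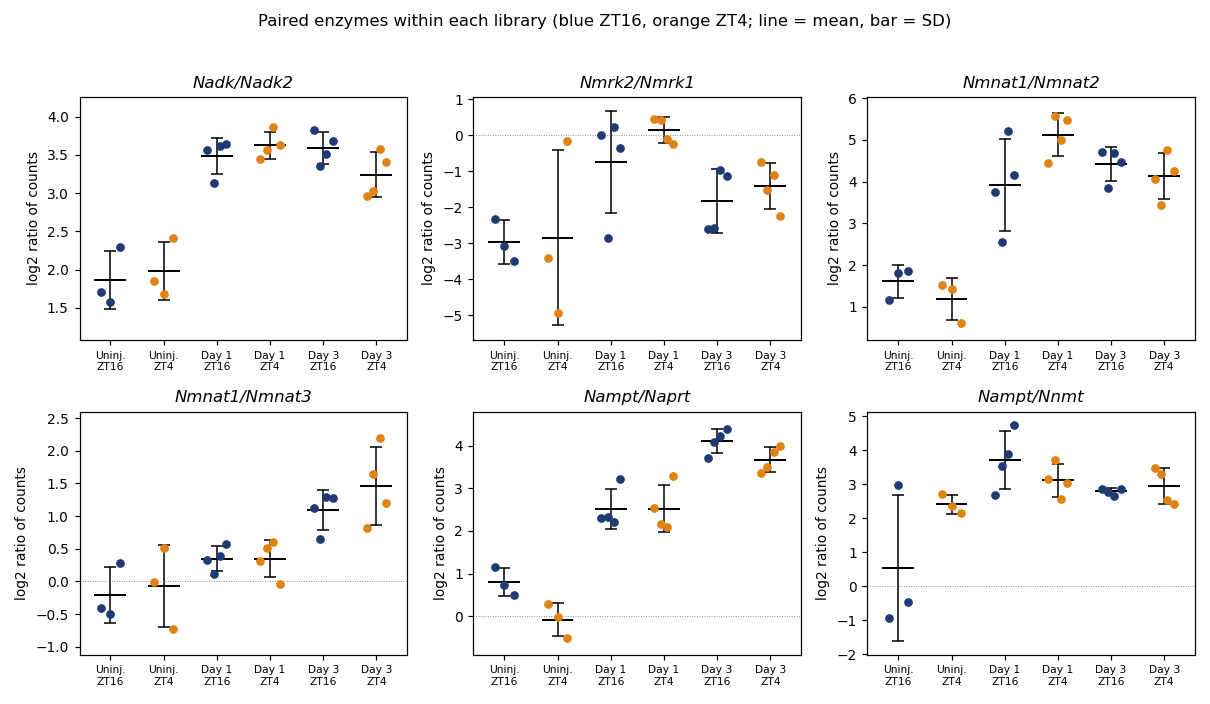
Log2 ratios of counts between 2 enzyme genes in each library (blue ZT16, orange ZT4), with group mean (line) and SD (bar). Nadk over Nadk2 lies between 2.96 and 3.86 in injured libraries and between 1.58 and 2.41 in uninjured ones, and Nampt over Naprt climbs over the 3 states in separate ranges.

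The comparison of ZT16 with ZT4 asked whether the enzymes differed between the labelled zeitgeber times. Without injury, 2 of the 10 members rose at ZT16, Nampt and Nnmt, and none fell, where 17.7% of all genes passed (8.53% higher, 9.12% lower). The median over members was 0.04, and 0.000 over all genes. Clock genes differed in these libraries: Per2, a clock repressor, was at 201.7 ± 43.6 CPM at ZT16 and 28.0 ± 25.5 at ZT4, and Arntl, which encodes BMAL1, at 8.55 ± 4.57 and 35.4 ± 12.8 CPM (SD, n = 3 each).

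Nampt was 1.73-fold higher at ZT16 than at ZT4 without injury (0.79 ± 0.16, edgeR adjusted p = 0.00103), higher in 3 of 3 libraries. Leaving out the pair of libraries with high early genes kept the call (0.87 ± 0.21, edgeR adjusted p = 0.0259), with 1 library remaining at ZT16 that is assumed to vary like the other groups. With only the uninjured groups in the fit the value was the same size but did not pass (0.78 ± 0.23, edgeR adjusted p = 0.0746).

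Nnmt was 10.3-fold higher at ZT16 (3.36 ± 0.59, edgeR adjusted p = 0.000512), which rests on 2 of the 3 libraries. Without that pair, on the same assumption for the 1 library left, the value was 0.31 ± 0.56 (edgeR adjusted p = 0.87). The call also ended in limma voom (2.95 ± 1.09, adjusted p = 0.0879) and with only the uninjured groups in the fit (3.35 ± 0.92, edgeR adjusted p = 0.102).

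Other members did not pass between times in uninjured muscle, though for Nmnat1 (-0.58 ± 0.23), Nadk (0.24 ± 0.10) and Nmnat2 (-0.97 ± 0.45) the unadjusted p was under 0.05 (edgeR adjusted p = 0.0836, 0.0906 and 0.145). Nmnat2 had 4.4 to 5.16 CPM at ZT16, all below the 8.69 to 10.6 at ZT4. Without ZT4 replicate 3, Nmnat1 passed, at -0.84 ± 0.21 (edgeR adjusted p = 0.00829). That library was also the lowest of its group for Nampt, Nmrk1 and Nadk2 and the highest for Nmrk2. It had the lowest depth of all libraries, 5965957 estimated counts, and the fewest genes with counts, 15875.

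After injury no member passed between ZT16 and ZT4 in edgeR. At day 1, 0.0% of all genes passed, with 920 of 15084 genes at an unadjusted p under 0.05, and 26 genes passed in DESeq2 and 46 in limma voom, none of them a member. Nmnat2, on 2 to 15 counts per library, was the single member under an unadjusted p of 0.05 (1.18 ± 0.52, edgeR adjusted p = 0.754). At day 3, again 0.0% passed, with 1003 genes at an unadjusted p under 0.05 and 0 genes past the threshold in DESeq2 and in limma voom. Nadk2 was the single member under an unadjusted p of 0.05 (-0.33 ± 0.16, edgeR adjusted p = 0.742). Nampt differed between times by 0.03 ± 0.13 at day 1 and -0.00 ± 0.13 at day 3. Per2 and Arntl did not pass either (0.76 ± 0.38 and 0.14 ± 0.30 at day 1, 0.11 ± 0.43 and 0.14 ± 0.29 at day 3).

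**Figure D5:**
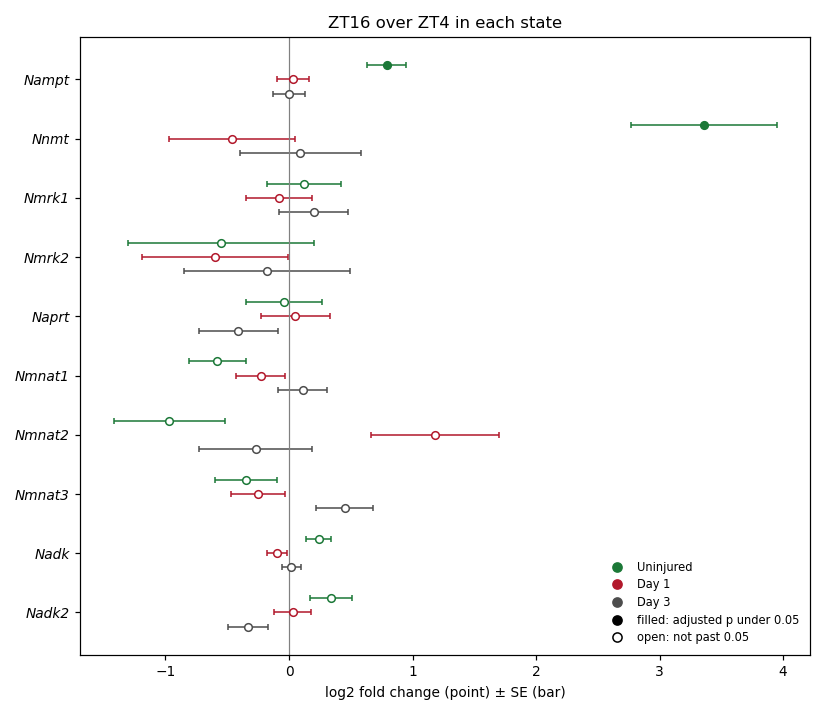
Log2 fold changes of ZT16 over ZT4 (points) with SE (bars) for the 10 genes in uninjured muscle and at day 1 and day 3. Nampt (0.79) and Nnmt (3.36) in uninjured muscle are the filled points, those past an adjusted p of 0.05 in edgeR. At day 1 and day 3 the Nampt points lie at 0.03 and -0.00.

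Whether the difference between ZT16 and ZT4 was unlike in injured and uninjured groups was tested as an interaction. The labels tie the time of injured groups to the injury, without an hour of collection. The label may therefore not mark the same hour in injured and uninjured groups. For day 1 against uninjured, 7.46% of all genes passed (3.93% higher, 3.53% lower) and 2 members did, Nampt (-0.76 ± 0.20, edgeR adjusted p = 0.0231) and Nnmt (-3.82 ± 0.77, edgeR adjusted p = 0.00574). For day 3 against uninjured, 12.8% of all genes passed (6.80% higher, 5.97% lower) and the same members did, Nampt (-0.79 ± 0.20, edgeR adjusted p = 0.0108) and Nnmt (-3.27 ± 0.76, edgeR adjusted p = 0.00645). A negative value means a smaller excess at ZT16 after injury. The day 1 and day 3 tests share the uninjured libraries.

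Both interactions of each gene were sensitive to the uninjured libraries. Without ZT16 replicates 1 and 3, Nnmt was at -0.77 and -0.22 for day 1 and day 3 (edgeR adjusted p = 0.70 and 0.945). Nampt kept its size, at -0.84 and -0.87, but did not pass with the single ZT16 library left (edgeR adjusted p = 0.124 and 0.0598). The day 1 value of Nampt also did not pass without uninjured ZT4 replicate 3 (-0.60, edgeR adjusted p = 0.0567) or with only the groups compared in the fit (-0.74, edgeR adjusted p = 0.0648). In limma voom none of the 4 passed (Nampt -0.67 and -0.72, adjusted p = 0.124 and 0.0623; Nnmt -3.29 and -2.80, adjusted p = 0.177 each). Among members that did not pass, Nmnat2 for day 1 (2.15 ± 0.69, edgeR adjusted p = 0.0574) passed in 2 of 32 alternatives. Among them was the fit without day 1 ZT16 replicate 3 (2.43, edgeR adjusted p = 0.031). For day 3, Nadk2 (-0.67 ± 0.23, edgeR adjusted p = 0.0572) passed in 5 of 32. Its value was -0.78 to -0.80 without day 3 ZT16 replicate 2, uninjured ZT4 replicate 2 or uninjured ZT16 replicate 3. Nmnat1 (0.69, and 0.94 without uninjured ZT4 replicate 3) and Nmnat3 (0.80, and 1.15 without uninjured ZT16 replicate 2) each passed in 1 of 32.

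Around the members, 3 further lists of NAD genes were read. De novo synthesis from tryptophan was hardly present: of 10 genes only Afmid and Nadsyn1 had enough counts to be tested. Acmsd had no counts, Kynu had 2 and Qprt 38 over all 22 libraries. Nadsyn1, which also completes the nicotinic acid route, passed in no comparison. Afmid, a kynurenine pathway enzyme, was higher at day 3 than at day 1 (1.90 ± 0.47, edgeR adjusted p = 0.00133).

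Of 9 tested genes that handle NAD precursors, transport or breakdown, 4 rose and 2 fell at day 1 against uninjured, with a median of 0.74, where 75.2% of all genes passed. Aox1, an aldehyde oxidase that acts on methylated nicotinamide made by NNMT, fell to 11.2 CPM at ZT16 and 8.71 at ZT4 of day 1, against 79.2 and 68.6 without injury (-2.90 ± 0.20, edgeR adjusted p = 5.51e-12). Noct, which encodes a phosphatase of NADP and NADPH, rose by 3.52 ± 0.23 (edgeR adjusted p = 2.49e-11). Slc29a1, a nucleoside transporter gene, rose by 0.74 ± 0.09 (edgeR adjusted p = 7.70e-08). Bst1, an NAD-consuming surface enzyme common on myeloid cells, had 316 counts over the day 1 libraries and 6 over the uninjured ones. Macrophage markers rose as well, as given above, and their part in the Bst1 change was not tested.

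At day 3, 6 of these 9 genes rose and 2 fell against uninjured, where 76.9% of all genes passed, among them Aox1 (-4.74 ± 0.23), Noct (3.36 ± 0.23), Slc29a1 (1.11 ± 0.09) and Nt5e, an ectonucleotidase gene (-4.12 ± 0.51), with edgeR adjusted p of at most 8.91e-08. Against day 1, 3 rose and 4 fell, where 55.4% of all genes passed, with Bst1 at -3.66 ± 0.40, Aox1 at -1.84 ± 0.23 and Nt5e at -3.05 ± 0.50. Over the day 3 libraries Nt5e had 31 counts and Bst1 26, against 267 and 316 at day 1. Both passed the filter on low counts through other states, so the sizes of their day 3 changes are coarse. None passed between times in any state in edgeR (1 gene at an unadjusted p under 0.05 without injury and 0 at day 1 and day 3).

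The last list held enzymes and carriers of cytosolic NADH reoxidation and its shuttles, together with Slc2a1, a glucose transporter gene. Of these 12 genes, 7 rose and 1 fell at day 1 against uninjured, with a median of 1.28, where 34.6% of all genes rose and 40.6% fell. At day 3, 9 rose and 1 fell, with a median of 1.14, where 37.9% of all genes rose and 39.1% fell. Ldhb, lactate dehydrogenase B, fell at day 1 (-1.34 ± 0.11), and Slc25a11, Slc25a12 and Gpd1 were among those that did not pass then (-0.02, -0.01 and -0.22). Ldha, lactate dehydrogenase A, rose to 2473.1 CPM at ZT16 and 2702.5 at ZT4 of day 1, against 635.3 and 525.4 without injury (2.16 ± 0.09, edgeR adjusted p = 3.16e-16). Got1, the cytosolic aspartate aminotransferase of the malate shuttle, rose by 2.40 ± 0.10, Got2 by 1.25 ± 0.08 and Mdh2 by 1.31 ± 0.08 (edgeR adjusted p of at most 2.07e-13). At day 3 against day 1, 7 rose and 2 fell, where 26.7% of all genes rose and 28.7% fell, with Mdh1 at 0.70 ± 0.05, Ldhb at 1.33 ± 0.10 and Slc25a11 at 0.73 ± 0.07. Between times without injury Slc2a1 was higher at ZT16 (1.00 ± 0.30), and Got1 (-0.54 ± 0.15), Got2 (-0.47 ± 0.11) and Slc25a11 (-0.38 ± 0.12) were lower (edgeR adjusted p = 0.0251, 0.0128, 0.00397 and 0.0284). By the interaction test for day 3 against uninjured, Got2 (0.55 ± 0.15), Got1 (0.57 ± 0.19) and Slc2a1 (-1.28 ± 0.39) passed (edgeR adjusted p = 0.013, 0.0468 and 0.033). There 6.80% of all genes passed higher and 5.97% lower. For day 1 against uninjured, 0 of the 12 passed, where 7.46% of all genes did.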

How the data were processed

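RNA was measured in 22 libraries of sorted Pax7-zsgreen muscle stem cells. Per the labels' protocols, a kit for fixed tissue was used for RNA and SMART-seq v4 for cDNA libraries. The submitters' processing notes name RSEM 1.3.3, STAR 2.5.2, Trimmomatic 0.33, DESeq2 (no version) and the mm10 genome, and their roles, order and annotation release are not given in the sources used here. Per the file headers, the deposited files hold expected counts, TPM, FPKM, percent of the gene (isoform share) and lengths in bases for 103732 transcripts per library. The deposited FPKM and percent were not used, TPM served for levels between genes and as an alternative for shares and ratios, and effective length for offsets in an alternative.

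Expected counts were summed per Ensembl gene (43430 genes, 42462 matched to a symbol through GENCODE M21) and rounded. Whole totals (within 0.05 of a whole number) stood in 22 of 22 libraries for each member other than Nmrk1, with 16 of 22. Reads split with another gene would leave fractions. Totals of 5965957 to 9751536 counts set the precision, and PCR copies are not independent molecules. One edgeR 4.0.16 fit in R 4.3.3 (TMM factors 0.942 to 1.094, robust quasi-likelihood, common dispersion 0.0444) had a mean for each of 6 groups. The edgeR filter (minimum count 10, total 15) kept 15084 genes. P-values were adjusted by Benjamini-Hochberg over all of them, with 0.05 as the threshold. CPM are TMM-scaled, and the SE is the absolute log2 change divided by the root of F. limma 3.58.1, DESeq2 1.42.0, other scaling, filters, length offsets, a replicate block and left-out libraries were alternatives. Exact permutation tests were two-sided. Code was tested on simulated counts. For ZT16 against ZT4 without injury, 10.4% of simulated 1.5-fold changes and 46.3% of 2-fold changes were recovered. For day 1 against uninjured the shares were 50.7% and 74.6%. Changes of such sizes can therefore be missed.

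Replicate numbers were not taken to pair samples: correlations of their deviations were -0.091 to 0.105. Named were all 10 members, Arntl, Per2 and the 5 genes most like Nampt and like Nnmt. From the further lists up to 4 genes by smallest p per comparison were planned. Not every such gene is printed, and some others were added. Overlapping genes, single NAD genes with few counts and the ratios were added after their values were seen. The members and lists were chosen with earlier results of these data known. Of 153 listed genes 152 were found (not Pnp). Promoter windows are from RefSeq on GRCm38.p6, with none used here for Naprt, Nadk2 and Nnmt.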

Additional observations from a re-analysis of the deposited data

Results flagged for a closer look

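Among the 40 groups of 4 libraries, 10 members in 4 injured groups, 3 held a library whose gap to the nearest other exceeded the 95% critical value of Dixon's test, where chance gives about 1 in 20. Nmnat3 was at 12.4 CPM in day 1 ZT16 replicate 3, with 10.5 to 10.8 in the other libraries of that group. Nadk was at 274.7 CPM in day 1 ZT16 replicate 2, the others lying between 324.2 and 331.1. Nadk was at 230.9 CPM in day 3 ZT16 replicate 3, the others lying between 261.1 and 262.2. For Nadk, day 1 ZT16 replicate 2 was the lowest of all day 1 libraries. Day 3 ZT16 replicate 3 was just above the lowest day 3 library, ZT4 replicate 2 at 230.4 CPM.

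The difference between ZT16 and ZT4 was unlike in injured and uninjured groups for Nampt and Nnmt, by the interaction test in edgeR. In injured groups the labels tie that time to the injury. Nampt had -0.76 at day 1 against uninjured (adjusted p = 0.0231) and -0.79 at day 3 against uninjured (adjusted p = 0.0108). Nnmt had -3.82 (adjusted p = 0.00574) and -3.27 (adjusted p = 0.00645). The immediate early genes were high in 2 of the 3 uninjured ZT16 libraries that enter each of these tests. Without them the Nampt values were -0.84 and -0.87 and the Nnmt values -0.77 and -0.22, none past the threshold (adjusted p = 0.124, 0.0598, 0.70 and 0.945).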

How the results depend on the processing

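Of 27 member values past the threshold, all 27 kept their calls with DESeq2 size factors, upper-quartile factors, unrounded expected counts, DESeq2 and the replicate block, 26 with no filter and with effective length offsets, 23 with only the groups compared and 21 in limma voom. With only the groups compared, members past the threshold numbered 0 for ZT16 over ZT4 without injury and 1 for the day 1 interaction, against 2 each. In limma voom they numbered 1 without injury and 0 for either interaction, and with uninjured ZT16 libraries 1 and 3 left out together 1, 0 and 0. The day 1 interaction had 1 to 3 members with single libraries left out, 1 without uninjured ZT4 replicate 3.

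No library pairing follows from the replicate numbers. The replicate block changed no sign, lost no call and added Nadk2 at day 3 against day 1 (-0.23, adjusted p = 0.0361) and in the day 3 interaction (-0.68, adjusted p = 0.0226). With that block the count of members past the threshold was 2 for ZT16 over ZT4 without injury.

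Signs turned only for values that had not passed, with 1 exception, Nnmt at day 1 against uninjured. With the uninjured pair left out, Nnmt was at 0.55 at day 1 and 0.85 at day 3 against uninjured, Naprt at 0.08, Nmrk1 at -0.09 and Nmnat3 at 0.12 for ZT16 over ZT4 without injury, and Nmnat3 at -0.38, Naprt at -0.03, Nmrk1 at 0.01 and Nmrk2 at 0.35 in the day 1 interaction. With effective length offsets, Nmrk1 was at 0.19 for ZT16 over ZT4 at day 1 and at 0.05 and -0.03 in the day 1 and day 3 interactions, and Nmnat1 at 0.06 at day 1 against uninjured. In limma voom, Nmrk2 was at 0.73 for ZT16 over ZT4 without injury, 0.34 at day 3 against uninjured and -0.77 in the day 3 interaction. The Nmnat3-201 share at day 3 minus day 1 was -0.1 points by TPM. The cause was not tested.

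With single libraries left out, values ran over these ranges. For ZT16 over ZT4 without injury they were -0.16 to 0.34 for Nmrk1, -1.07 to 0.97 for Nmrk2 and -0.16 to 0.14 for Naprt. At day 1 they were -0.03 to 0.08 for Nampt, -0.13 to 0.24 for Naprt and -0.05 to 0.09 for Nadk2. At day 3 they were -0.07 to 0.08 for Nampt, -0.44 to 0.12 for Nmnat2, -0.47 to 0.28 for Nmrk2, -0.02 to 0.06 for Nadk and -0.06 to 0.27 for Nnmt. Nmrk2 at day 3 against uninjured had -0.52 to 0.50. In the day 1 interaction Nmnat3 had -0.08 to 0.45, Nmrk1 -0.42 to 0.09, Nmrk2 -1.58 to 0.46 and Naprt -0.09 to 0.27. In the day 3 interaction Nmrk1 had -0.14 to 0.36 and Nmrk2 -1.15 to 0.89.

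Over all genes, ZT16 against ZT4 without injury gave 2663 genes, against 577 with only the groups compared, 1768 without uninjured ZT16 replicate 1 and 467 without the pair. At day 1, where 0 passed, 270 did with no filter, 26 in DESeq2, 46 in limma voom, 1 with length offsets, 2 with only the groups compared and 10 without ZT16 replicate 4. At day 3, where 0 passed, 127 did with no filter and 1 with only the groups compared. The day 1 interaction gave 1125 genes, against 737 in limma voom, 514 with only the groups compared, 648 and 728 without uninjured ZT16 replicate 1 or 3 and 134 without both. The day 3 interaction gave 1927, against 473 without both.

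By TPM the log2 ratio of Nadk over Nadk2 at day 3 against day 1 (-0.38, exact permutation adjusted p = 0.0423) and that of Nmrk2 over Nmrk1 at day 3 against uninjured (1.36, exact permutation adjusted p = 0.0283) also passed, an alternative added after seeing the data. Effective length offsets also carried Nadk for ZT16 over ZT4 without injury (0.34), Nmnat1 at day 3 against uninjured (0.50) and Nmnat2 at day 3 against day 1 (1.53) past the threshold. Depth limited Nmnat2 after injury (2 to 15 counts per library) and Nmrk2 (4 to 71).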

Other observations

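Some genes of the further lists that were not described above differed between the injured states, while Got2 (-0.12 ± 0.07, edgeR adjusted p = 0.134) and Slc25a12 (0.03 ± 0.12, edgeR adjusted p = 0.873) of the NADH shuttles did not pass at day 3 against day 1. Gpd2, the mitochondrial glycerol phosphate dehydrogenase, was at 134.8 CPM at ZT16 and 145.3 at ZT4 of day 3, against 71.5 and 77.0 at day 1 (0.91 ± 0.13, edgeR adjusted p = 2.34e-06). Its cytosolic partner Gpd1 went the other way, at 1.71 and 2.12 CPM against 6.30 and 8.68 (-1.98 ± 0.32, edgeR adjusted p = 1.40e-05). Nnt, which couples NADH to NADPH in mitochondria, was higher at day 3 than at day 1 (0.56 ± 0.14, edgeR adjusted p = 0.00157). Slc25a51, the mitochondrial NAD carrier, was higher by 0.27 ± 0.09 (edgeR adjusted p = 0.0106). Cd38, an NAD-consuming surface enzyme, was lower at day 3 than at day 1 (-2.06 ± 0.45, edgeR adjusted p = 0.000473). It did not pass at day 3 against uninjured (-1.06 ± 0.49, edgeR adjusted p = 0.0536). Macrophage markers summed to 288.1 to 1029.9 CPM at day 3, 1394.2 to 4500.9 at day 1 and 17.1 to 108.3 without injury. Their part in the Cd38 change was not tested. Slc25a13, an aspartate and glutamate carrier of the malate shuttle, averaged 19.9 ± 0.366 CPM at ZT16 and 23.8 ± 1.52 at ZT4 of day 3, against 0.191 ± 0.165 and 0.0412 ± 0.0714 without injury, where it had 5 counts over all libraries.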
